A study of Homo sapiens with 9 samples.

Results

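The proteasome is the large protease that degrades ubiquitin-tagged proteins in eukaryotic cells, and its transcripts were followed here through a heat shock and the recovery from it. The genes were taken from a fixed list of symbols and not by a cutoff on their values: the subunits of the 20S core particle and the 19S regulatory particle, the assembly chaperones counted with them, the activators PSME1 to PSME4, the maturation factor POMP and the transcription factor NFE2L1. Earlier results of these data were known when the list was chosen. The listed genes make up 41 of the 60664 genes in the deposited count table. RNA-seq had been done on HEK293T cells, an established human embryonic kidney line carrying the SV40 large T antigen. The conditions were untreated cells grown at 37 °C (NC), cells collected directly after 1 h at 43 °C (H1), and cells given the same heat and then left at 37 °C until 1 h (H1R1), 6 h (H1R6) and 18 h (H1R18) had passed. There were 2 libraries per condition except for H1R18, which had 1. The labels call the untreated cells wild-type and name no other genotype, drug or transgene for any library, so all results are for this one line under one heat dose.

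In the complete 26S proteasome, the 19S particle sits on the end of the barrel-shaped 20S core. The lid and base of the 19S particle bind and unfold tagged proteins: the base holds a ring of ATPases and ubiquitin receptors, and the lid holds PSMD14, the enzyme that cuts off the ubiquitin chain. The alpha rings of the core form its gate, and the beta rings carry the proteolytic sites in PSMB5, PSMB6 and PSMB7. NFE2L1, also called NRF1, is a membrane-bound transcription factor that is processed when proteasomes are inhibited and then raises proteasome gene transcription together with small MAF proteins, which is known as the bounce-back response.

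Libraries held 3814195 to 6221613 counts. The heat-inducible chaperone genes HSPA6, DNAJB1, HSPH1 and BAG3 were all higher at H1 than in NC, by 6.97, 4.74, 3.68 and 2.92 on the log2 scale, so the labels and the data matched for the heat treatment. KRT8, KRT18, VIM, NEFL and NEFM, expressed in HEK293T cells, were detected in every library, while markers of liver and blood cells (ALB, AFP, APOA1, APOB, PTPRC and HBB) had at most 4 counts. TF, the last liver marker listed, had 2 to 16 counts per library. Levels below are CPM (the counts of a gene relative to its library's total, scaled by edgeR's TMM factors), and changes are log2 fold changes from 1 edgeR quasi-likelihood fit of all 9 libraries, with Benjamini-Hochberg adjustment over the 21139 genes that passed a filter on low counts. A change was called at an adjusted p under 0.05. Whether the libraries of a condition are from separate cultures is not stated in the labels, and the p-values cover no more than the spread between these libraries, possibly a technical one. H1R18 has no replicate check and was assumed to vary like the other conditions. As in any bulk sample, fewer cells expressing a gene and less of its RNA per cell cannot be told apart.

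Of the 41 genes, 40 passed the filter, with 16 to 1615 counts per library. The exception was PSMB3 (ENSG00000277791, chr17:38752741-38764225), a beta ring gene, which was listed at 0 in every library. Its exons overlap no other gene and it has 2 named pseudogenes. Whether its transcript was absent or its reads were lost in mapping or counting was not tested. Per kilobase of exon, PSMA7 and 4 genes of the beta ring were highest in NC: PSMA7 had 97.6 CPM per kb, PSMB4 93.1, PSMB5 90.9, PSMB1 77.6 and PSMB7 61.0. The beta ring had a median of 69.3 CPM per kb in NC over 6 genes. The medians were 18.5 for the alpha ring, 13.8 for the base ATPases, 30.3 for the other base subunits and 18.7 for the lid. The divisor is the length of all annotated exons of a gene, so this order depends on it. PSMA4 and PSMB1 had means of 176 and 172 CPM in NC. Per kb they had 25.2 and 77.6, with 6994 and 2219 exon bases. PSMA2 (0.663 CPM per kb), PSMA6 (1.47) and PSMD9 (2.01) were the lowest. Reads that touch several genes or map to several places had been left out by the authors, and all 3 share exon bases with another gene: 29.7% of those of PSMA2, 14.1% of PSMA6, which also has 4 named pseudogenes, and 17.7% of PSMD9. The low level of these genes is therefore uncertain, and that of PSMC1 as well, since 76.1% of its exon bases are shared with NRDE2 on the other strand and it has 13 named pseudogenes.

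Over all 41 genes together, the transcripts took their highest share of the counts 1 h after the return to 37 °C and their lowest at the last time. Their share of all counts was 0.385% and 0.395% in the NC libraries, 0.403% and 0.397% in H1, 0.463% and 0.445% in H1R1, 0.415% and 0.423% in H1R6, and 0.311% in H1R18. Both H1R1 libraries were thus above every other library and the H1R18 library was below all of them. At H1R1, 35 of the 40 tested genes had a positive log2 fold change against NC, and at H1R18, 37 had a negative one. The median over the 40 genes was 0.05 at H1, 0.27 at H1R1, 0.07 at H1R6 and -0.35 at H1R18, and that over all genes tested was -0.01 at H1, H1R1 and H1R6 and -0.03 at H1R18. Over all 21139 genes tested, 10404 were positive at H1R1 and 11029 negative at H1R18. A set of 7118 well expressed genes, averaging a log2 CPM of 5 or more, was chosen after the data were seen. Its median was 0.06 at H1R1 and -0.05 at H1R18, with 4095 genes positive at H1R1 and 4005 negative at H1R18.

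**Figure D1:**
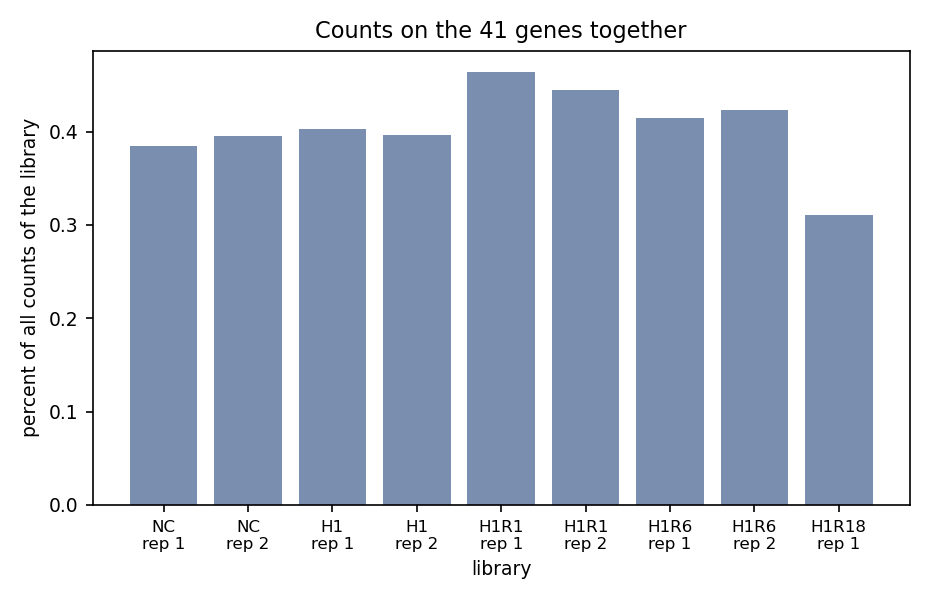
Share of all counts of a library that fell on the 41 proteasome genes together (bars, percent, vertical axis from 0) in each of the 9 libraries (horizontal axis). The H1R1 libraries are highest at 0.463% and 0.445%, and the single H1R18 library is lowest at 0.311%.

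After heat alone, few of the genes had moved. At H1, 2 of the 40 genes were higher than in NC, PSMD6 and PSMD12, both of the lid. Of all genes tested, 3.43% were called higher and 1.77% lower, so 2 of 40 is close to the background. None of the 40 was called lower by edgeR or by DESeq2, and 1 was lower at an unadjusted p under 0.05. Without NC replicate 1, H1 replicate 1 or H1 replicate 2, only 1 of the 40 was called.

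At H1R1, 15 of the 40 genes were higher than in NC, against 10.7% of all genes tested called higher, and 2 were lower, PSMD5 and NFE2L1, against 9.53% of all genes tested. The libraries of H1R1 lay entirely above those of NC for 30 genes and entirely below for 2. Over all genes tested, 6037 of 21139 lay entirely above and 6077 entirely below. The 15 genes were PSMA4 and PSMA6 of the alpha ring, PSMB2 and PSMB5 of the beta ring, PSMC4 and PSMC6 of the base ATPases, PSMD1 and ADRM1 of the other base subunits, PSMD3, PSMD6, PSMD11, PSMD12 and PSMD14 of the lid, and the activators PSME3 and PSME4. Well expressed genes were called more often in general: of 7118 genes averaging a log2 CPM of 5 or more, a set chosen after the data were seen, 22.4% were higher at H1R1 and 12.9% lower. The count of 15 fell to 7 without H1R1 replicate 1, and to 9 when counts were scaled by library size alone. Neither lower call was left without NC replicate 1 or H1R1 replicate 1, and 1 was left without H1R1 replicate 2, with no filter or with DESeq2. The calls for PSMD1, ADRM1, PSMD3, PSMD6, PSMD11, PSMD12 and PSME4 were kept in all 17 alternative analyses.

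At H1R6, 1 of the 40 genes, PSMD12, was still higher than in NC (3% of all genes tested were called higher and 4.03% lower). None was called lower by edgeR or DESeq2, with 1 lower at an unadjusted p under 0.05. The count of genes higher was 4 when at least 10 counts were required in every library, 2 without NC replicate 1 or without H1R6 replicate 1, and 0 without H1R6 replicate 2.

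At H1R18, 15 of the 40 genes were lower than in NC, against 6.43% of all genes tested called lower, and 4.58% of all were called higher. They were PSMA3, PSMA4, PSMA5 and PSMA7 of the alpha ring, PSMB1, PSMB5 and PSMB6 of the beta ring, the ATPases PSMC2, PSMC3, PSMC4 and PSMC5, the base subunits PSMD1 and PSMD2, PSMD12 of the lid, and PSME3. None of the 40 was called higher by edgeR or DESeq2, and 1, NFE2L1, was higher at an unadjusted p under 0.05. The single H1R18 library lay below both NC libraries for 33 genes and above both for 2. With 1 library against 2, this is common: over all 21139 genes tested, 8485 lay below and 7749 above. Of the well expressed genes named above, 13.9% were lower at H1R18 and 8.77% higher. The calls for PSMA3, PSMA4, PSMA7, PSMB5, PSMB6, PSMC3, PSMC5, PSMD2, PSMD12 and PSME3 were kept in all 16 alternative analyses that had H1R18.

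In all, 26 genes were called in some comparison with NC. PSMA4, PSMB5, PSMC4, PSMD1, PSMD12 and PSME3 were called in both directions, higher at H1R1 and lower at H1R18. A further 9 were called higher at H1R1 and not lower at H1R18, and 9 were called lower at H1R18 and not higher at H1R1. Both comparisons share the NC libraries. For 14 of the 40 genes the exons overlap no other gene and there is no named pseudogene. Among these 14, 6 were higher and 1 lower at H1R1, and 8 were lower at H1R18. The background at H1R1 was 10.7% higher and 9.53% lower calls over the 21139 genes tested. In the well expressed set it was 22.4% and 12.9%. Lower calls at H1R18 made up 6.43% and 13.9% of these gene groups, in that order.

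**Figure D2:**
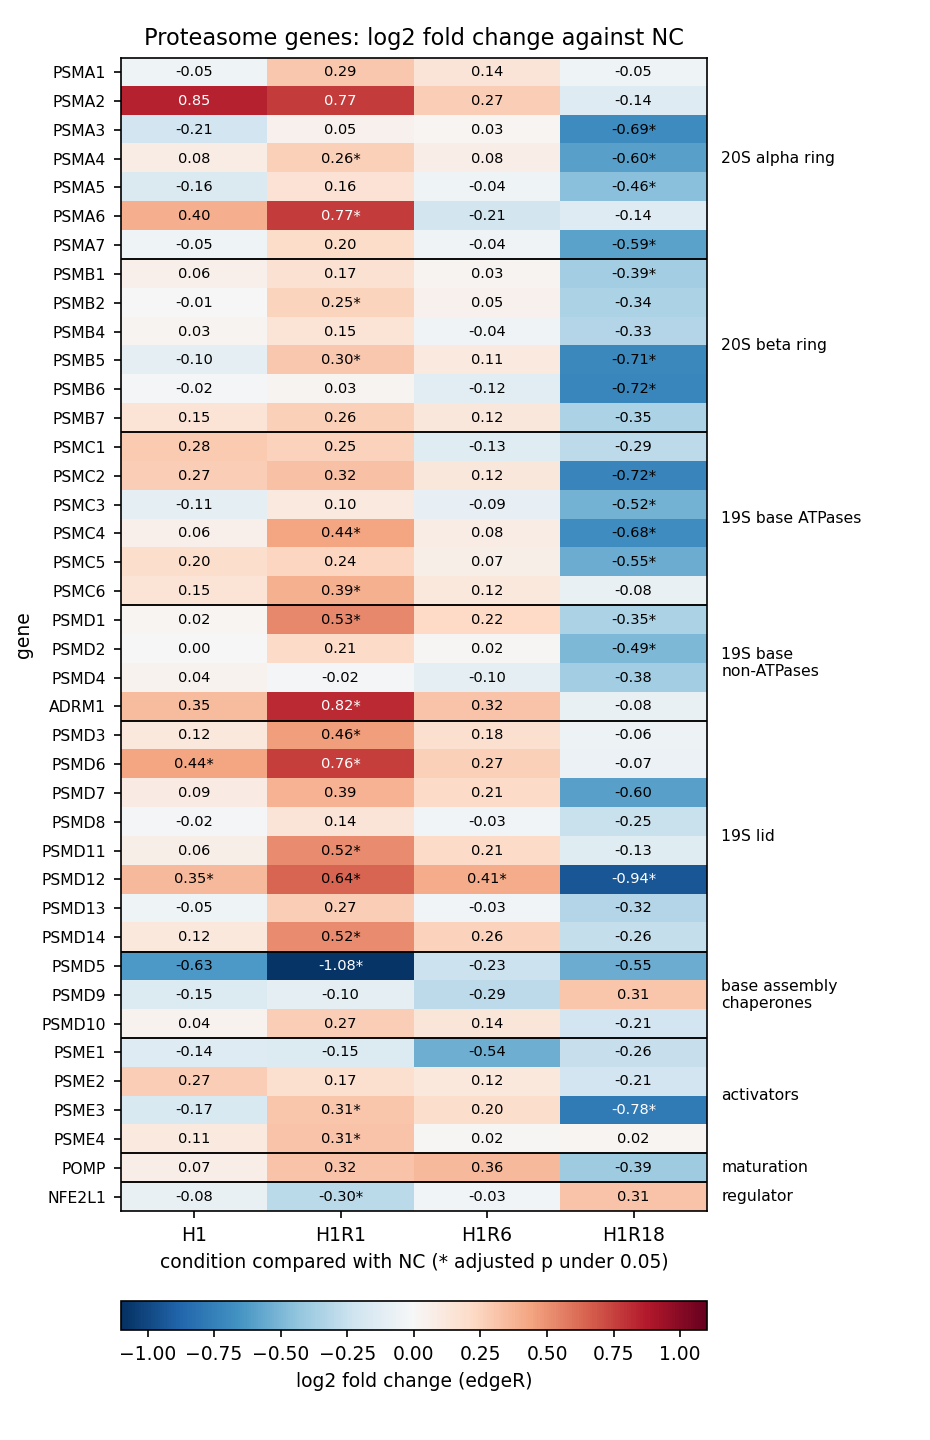
Log2 fold change against NC (colour and printed value, red higher and blue lower than NC) of the 40 tested genes (vertical axis, grouped by role) at H1, H1R1, H1R6 and H1R18 (horizontal axis), with a star where the adjusted p was under 0.05. Red prevails at H1R1, where 35 of 40 values are positive, and blue at H1R18, where 37 of 40 are negative.

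The core, the base and the lid all had positive medians at H1R1 and negative medians at H1R18. At H1R1 the lid had the highest median, 0.49 over 8 genes, against 0.29 for the 10 base genes and 0.25 for the 13 tested core genes. Of these genes 5 of 8, 4 of 10 and 4 of 13 were called higher. The shares called higher were 10.7% of all genes tested and 22.4% of the well expressed genes named above. The libraries of H1R1 lay above those of NC for 8 of 8 lid genes, 8 of 10 base genes and 9 of 13 core genes. Of all 21139 genes tested, 6037 lay above. At H1R18 the lid had the least negative median: the values were -0.26 in the lid, -0.44 in the base and -0.39 in the core, with 1 of 8, 6 of 10 and 7 of 13 genes called lower. The shares called lower at H1R18 were 6.43% of all genes tested and 13.9% of the well expressed genes. At H1 both called genes were in the lid, and the medians were 0.11 for the lid, 0.10 for the base and -0.01 for the core. At H1R6 they were 0.21, 0.08 and 0.03. Whether the groups of subunits differ from each other was not tested.

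**Figure D3:**
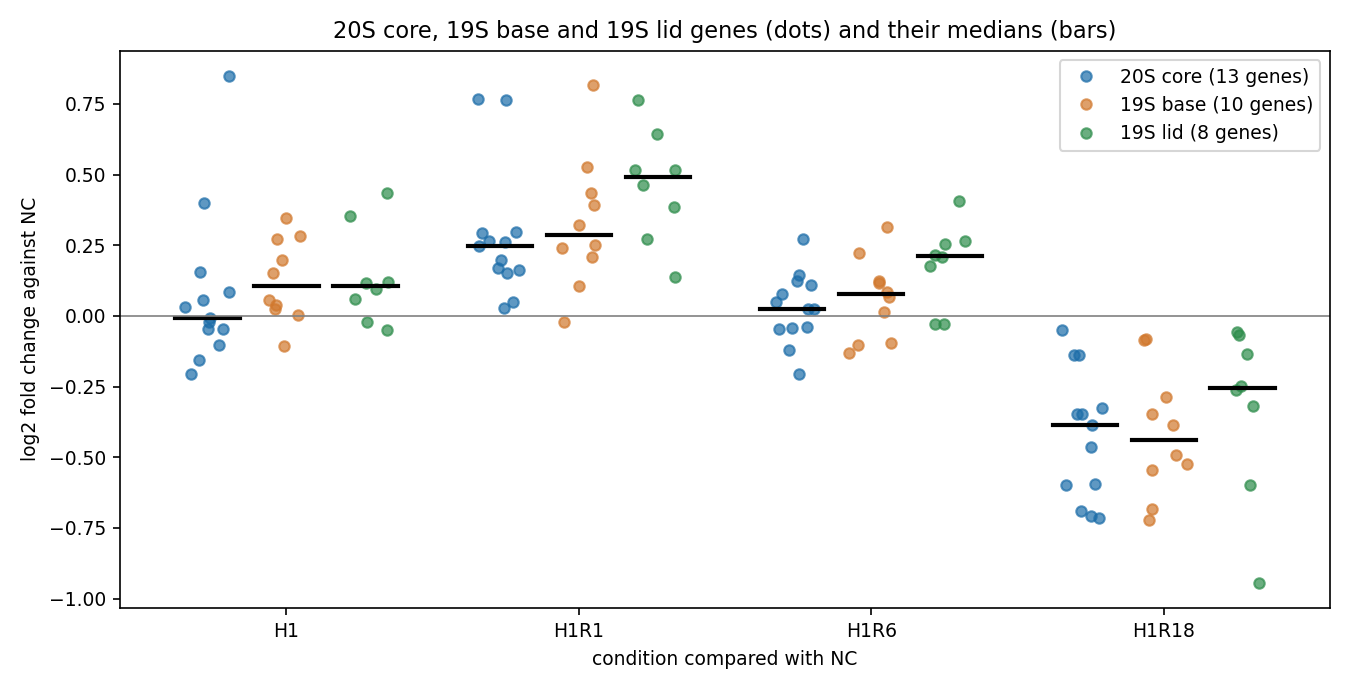
Log2 fold change against NC (vertical axis) of each core (blue), base (orange) and lid (green) gene at H1, H1R1, H1R6 and H1R18 (horizontal axis), with the median of each group as a black bar. The lid has the highest median at H1R1 (0.49) and the least negative one at H1R18 (-0.26).

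Promoter sequences were looked at because NFE2L1 and its small MAF partners bind the antioxidant response element, and heat shock factors bind inverted repeats of GAA. RefSeq promoters (GRCh38.p14, 250 bases before to 50 after each start) were matched for 36 of the 41 genes, all but PSMA7, PSMB1, PSMB6, PSMB7 and PSMD4. The 3 strings were counted separately, on both strands. TGACNNNGC, the core of the antioxidant response element, was found in 13 of the 36 genes (36.1%), against 16.1% of all 27305 genes with a promoter. Of the letters of heat shock elements, TTCNNGAA was present in 3 of the 36 genes (8.33%, against 9.46% of all genes) and GAANNTTC in 0 of 36 (8.21% of all genes). The sequences below are the windows of every match that lies before the start of a gene called in some comparison with NC, written 5′ to 3′ on the strand of the gene with the match in capitals. The first 7 hold TGACNNNGC, on the other strand in PSME4 and PSMC5. ADRM1, PSMA4, PSMD12, PSMD3 and PSME4 were higher at H1R1, PSMD5 was lower at H1R1, and PSMA4, PSMD12 and PSMC5 were lower at H1R18. The last 3 hold TTCNNGAA.
ADRM1, chr20:62302739-62302788, plus strand: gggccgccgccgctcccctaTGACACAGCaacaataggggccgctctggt
PSMA4, chr15:78540640-78540689, plus strand: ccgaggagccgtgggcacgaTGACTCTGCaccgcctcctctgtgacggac
PSMD12, chr17:67366713-67366762, minus strand: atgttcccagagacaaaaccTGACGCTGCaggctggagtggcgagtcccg
PSMD3, chr17:39980750-39980799, plus strand: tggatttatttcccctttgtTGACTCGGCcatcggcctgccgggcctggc
PSME4, chr2:53970998-53971047, minus strand: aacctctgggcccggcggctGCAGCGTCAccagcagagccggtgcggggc
PSMD5, chr9:120843027-120843076, minus strand: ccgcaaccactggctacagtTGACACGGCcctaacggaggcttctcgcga
PSMC5, chr17:63827644-63827693, plus strand: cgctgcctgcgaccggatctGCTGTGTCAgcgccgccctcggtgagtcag
PSMB5, chr14:23034957-23035005, minus strand: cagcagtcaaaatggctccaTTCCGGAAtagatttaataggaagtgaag
PSMD6, chr3:64023666-64023714, minus strand: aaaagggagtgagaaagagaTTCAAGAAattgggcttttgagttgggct
PSMD5, chr9:120842939-120842987, minus strand: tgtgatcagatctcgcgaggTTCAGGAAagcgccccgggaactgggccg
The matches begin 137 bases before the start in ADRM1, 126 in PSMA4, 165 in PSMD12, 37 in PSMD3, 34 in PSME4, 134 in PSMD5 and 57 in PSMC5 for TGACNNNGC, and 85 in PSMB5, 200 in PSMD6 and 45 in PSMD5 for TTCNNGAA. Such a match is a string of letters and not a shown binding site. Of the genes with TGACNNNGC, 12 were tested, and 7 of them were higher and 1 lower at H1R1 (median log2 fold change 0.29). Of the 23 tested genes with a promoter and no match, 8 were higher and 1 lower (median 0.29). At H1R18, 5 of the 12 and 7 of the 23 were lower. For comparison, higher calls at H1R1 took in 10.7% of the 21139 genes tested and 22.4% of the well expressed genes. For lower calls these shares were 9.53% and 12.9% at H1R1, and 6.43% and 13.9% at H1R18. Whether genes with and without the match differ in their changes was not tested.

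In the alpha ring, whose subunits form the gate of the core, all 7 genes had positive values at H1R1 and negative values at H1R18. PSMA4 had 168 and 185 CPM in NC, 185 and 188 in H1, 228 and 193 in H1R1, 189 and 182 in H1R6, and 116 in H1R18. The H1R1 libraries were above both NC libraries and the H1R18 library was well below them. PSMA4 was higher at H1R1 by 0.26 (SE 0.09, edgeR adjusted p = 0.0352) and fell by 0.60 at H1R18 (SE 0.12, edgeR adjusted p = 0.000743). The call at H1R1 was lost without NC replicate 1, H1R1 replicate 1 or either H1 library, with log2 fold changes of 0.13 to 0.37 over the libraries left out. It was also lost with library size scaling or only the conditions compared (highest edgeR adjusted p 0.456). PSMA7, the best expressed alpha gene per kilobase, had 161 and 181 CPM in NC, 173 and 158 in H1, 194 and 198 in H1R1, 162 and 171 in H1R6, and 113 in H1R18. Its change at H1R18 was -0.59 (SE 0.12, edgeR adjusted p = 0.000641), while that at H1R1, 0.20, did not pass the test (adjusted p = 0.11).

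PSMA6 was low but followed a clear course: 9.79 and 9.39 CPM in NC, 13.4 and 12.0 in H1, 16.7 and 15.9 in H1R1, 9.01 and 7.65 in H1R6, and 8.72 in H1R18. It was higher at H1R1 than in NC by 0.77 (SE 0.26, edgeR adjusted p = 0.0328). The call was lost without either NC or either H1R1 library (0.73 to 0.80), and with library size scaling, no filter or DESeq2 (highest adjusted p 0.153). Between H1R1 and H1R6 PSMA6 fell by 0.97 (SE 0.25, edgeR adjusted p = 0.00763). That call was lost without H1R1 replicate 1 or H1R6 replicate 2 (-1.08 to -0.85 over the libraries left out). PSMA2, the other alpha gene with shared exon bases and few counts, had 6.93 and 4.17 CPM in NC, 7.84 and 12.5 in H1, 9.02 and 10.3 in H1R1, 7.77 and 5.91 in H1R6, and 5.13 in H1R18. Its log2 fold change of 0.85 at H1 was the highest of the 40 genes at that time but had an SE of 0.34 and did not pass the test (edgeR adjusted p = 0.172).

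Of the 3 proteolytic subunits of the beta ring, PSMB5 was called at H1R1, and PSMB5 and PSMB6 were called at H1R18. Whether their changes differ from each other was not tested. PSMB5 (ENSG00000100804, chr14:23016543-23035230), which cuts after hydrophobic residues and is the main target of bortezomib, had 147 and 135 CPM in NC, 128 and 135 in H1, 176 and 170 in H1R1, 151 and 153 in H1R6, and 86.2 in H1R18. It was higher at H1R1 by 0.30 (SE 0.09, edgeR adjusted p = 0.0149) and lower at H1R18, at -0.71 (SE 0.12, adjusted p = 9.84e-05). The H1R1 call was lost without NC replicate 2 or H1R1 replicate 1 (0.24 to 0.36 over the libraries left out) and with library size scaling (highest adjusted p 0.0989). PSMB6, which cuts after acidic residues, had 64.0 and 69.4 CPM in NC, 69.9 and 61.5 in H1, 65.8 and 70.3 in H1R1, 60.9 and 61.5 in H1R6, and 40.5 in H1R18. Its H1R1 and NC libraries overlapped: the change was 0.03 with a 95% interval of -0.21 to 0.26. At H1R18 it was lower, at -0.72 (SE 0.16, edgeR adjusted p = 0.00343). PSMB7, which cuts after basic residues, had 97.5 and 121 CPM in NC, 124 and 117 in H1, 132 and 129 in H1R1, 111 and 126 in H1R6, and 85.4 in H1R18. Its values of 0.26 at H1R1 (edgeR adjusted p = 0.0658) and -0.35 at H1R18 (adjusted p = 0.0973) did not pass the test. POMP, the chaperone that brings beta subunits into the nascent core, had 59.7 and 60.3 CPM in NC, 66.8 and 59.2 in H1, 83.2 and 65.2 in H1R1, 69.9 and 83.6 in H1R6, and 45.7 in H1R18. Both the H1R1 and the H1R6 libraries were above NC and the H1R18 library was below, but none of these changes passed the test: 0.32 at H1R1 (edgeR adjusted p = 0.0862), 0.36 at H1R6 (0.0967) and -0.39 at H1R18 (0.159).

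Of the base ATPases, which unfold the substrate, PSMC4 had the largest change at H1R1. It had 92.2 and 76.7 CPM in NC, 92.0 and 84.4 in H1, 119 and 109 in H1R1, 81.6 and 98.2 in H1R6, and 52.9 in H1R18. PSMC4 was higher at H1R1 by 0.44 (SE 0.11, edgeR adjusted p = 0.00515) and lower at H1R18, at -0.68 (SE 0.16, adjusted p = 0.00333). The first call was lost without NC replicate 2 or H1R1 replicate 1 (0.32 to 0.58, highest adjusted p 0.0919), and the second without NC replicate 1 (-0.52 was the value nearest 0, highest adjusted p 0.0608). PSMC2 had 61.2 and 84.8 CPM in NC, 91.1 and 83.9 in H1, 89.2 and 91.9 in H1R1, 79.8 and 77.9 in H1R6, and 43.9 in H1R18. The 2 NC libraries of PSMC2 were farther apart than the libraries of any later condition. Its change of -0.72 at H1R18 passed the test (SE 0.17, edgeR adjusted p = 0.00441) but was -0.93 to -0.46 over the libraries left out, and the call was lost without NC replicate 2 (adjusted p 0.0829).

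Among the other base subunits, ADRM1 and PSMD1 rose at H1R1. ADRM1 (ENSG00000130706, chr20:62302093-62308862), a ubiquitin receptor that also docks the deubiquitinase UCHL5, had 42.6 and 49.1 CPM in NC, 52.8 and 63.4 in H1, 80.2 and 80.6 in H1R1, 48.0 and 65.5 in H1R6, and 43.1 in H1R18. Both H1R1 libraries stood above all others. Its change at H1R1, 0.82 (SE 0.14, edgeR adjusted p = 7.82e-05), was the largest rise of the 40 genes at that time, and at H1R18 it was -0.08, with a 95% interval of -0.46 to 0.29. LAMA5 lies over part of ADRM1 on the other strand and 17.2% of ADRM1 exon bases are shared. PSMD1, the scaffold that carries ADRM1, had 153 and 143 CPM in NC, 151 and 150.3 in H1, 214 and 213 in H1R1, 175 and 171 in H1R6, and 116 in H1R18. It did not differ from NC at H1 beyond the spread (0.02, 95% interval -0.14 to 0.19), rose by 0.53 at H1R1 (SE 0.08, edgeR adjusted p = 2.26e-05), and between H1 and H1R1 by 0.50 (SE 0.08, adjusted p = 9.11e-05). At H1R18 PSMD1 was lower than in NC, at -0.35 (SE 0.11, edgeR adjusted p = 0.0385). That call was lost in 11 of the 16 alternatives, among them those without NC replicate 1 or either H1 or H1R6 library (-0.38 to -0.27, highest adjusted p 0.163).

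The lid held the genes with the smallest p-values. PSMD12 (ENSG00000197170, chr17:67337916-67366605), a scaffold subunit of the lid, had 108 and 104.1 CPM in NC, 128 and 143 in H1, 166 and 165 in H1R1, 138 and 143 in H1R6, and 55.2 in H1R18. Every heated library up to H1R6 was above both NC libraries, and the H1R18 library was at 0.52 times the NC level. Its log2 fold change was 0.35 at H1 (SE 0.09, edgeR adjusted p = 0.0174), 0.64 at H1R1 (SE 0.09, 4.52e-06), 0.41 at H1R6 (SE 0.09, 0.00445) and -0.94 at H1R18 (SE 0.13, 7.04e-06). The call at H1 was lost without NC replicate 2 or H1 replicate 2 (0.28 to 0.44, highest adjusted p 0.249), and that at H1R6 without H1R6 replicate 2 (adjusted p 0.0533). Between H1R6 and H1R18 PSMD12 fell by 1.35 (SE 0.13, edgeR adjusted p = 5.39e-09). Of the 40 genes, PSMD12 alone was called in all 4 comparisons with NC.

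PSMD6 (ENSG00000163636, chr3:64010550-64024010), another lid scaffold, had 100.3 and 108 CPM in NC, 145 and 136 in H1, 185 and 167 in H1R1, 124 and 125 in H1R6, and 99.0 in H1R18. It was above NC in all libraries up to H1R6 and at the NC level at H1R18. The change was 0.44 at H1 (SE 0.09, edgeR adjusted p = 0.0031) and 0.76 at H1R1 (SE 0.09, 2.59e-07), and those at H1R6 (0.27, 0.0849) and H1R18 (-0.07, 0.794) did not pass the test. The call at H1 was lost without NC replicate 1 or H1 replicate 1 (0.39 to 0.50, highest adjusted p 0.0742). PSMD6 fell by 0.50 between H1R1 and H1R6 (SE 0.09, edgeR adjusted p = 0.000168). PSMD11, a lid subunit that contacts the base, had 133 and 128 CPM in NC, 132 and 140.1 in H1, 198 and 173 in H1R1, 152 and 148 in H1R6, and 119 in H1R18. It rose by 0.52 at H1R1 (SE 0.09, edgeR adjusted p = 8.88e-05), with 0.06 at H1, and the change between H1 and H1R1 was 0.46 (SE 0.09, adjusted p = 0.00071). PSMD14, the deubiquitinase of the lid, was higher at H1R1 by 0.52 (SE 0.11, edgeR adjusted p = 0.00104), a call that was lost without H1R1 replicate 1 (0.39 to 0.63, highest adjusted p 0.061), and PSMD3 by 0.46 (SE 0.09, adjusted p = 0.000182).

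**Figure D4:**
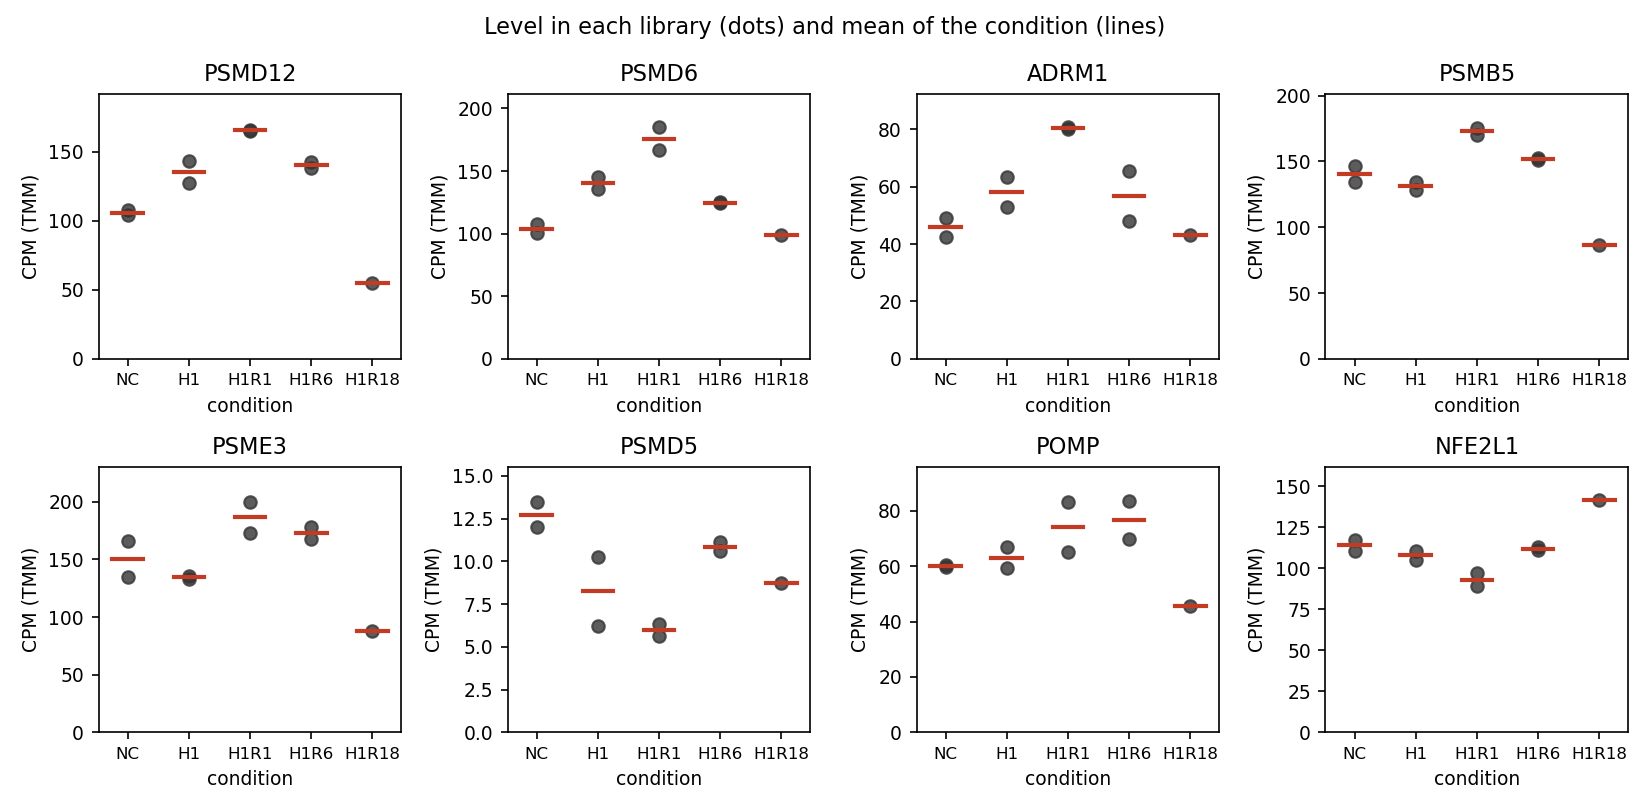
Level in TMM-scaled CPM (vertical axis, from 0) of PSMD12, PSMD6, ADRM1, PSMB5, PSME3, PSMD5, POMP and NFE2L1 in each library (dots) by condition (horizontal axis, in order of time), red lines marking condition means and 1 library at H1R18. PSMD12 is at 55.2 CPM at H1R18, against 108 and 104.1 CPM in NC, while NFE2L1 is highest at H1R18 (142 CPM) and lowest at H1R1.

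PSMD5, PSMD9 and PSMD10 are chaperones that bind the base ATPases during assembly and leave before the particle is finished. Of the 3, PSMD5 at H1R1 was called in a comparison with NC. PSMD5 had 13.5 and 12.0 CPM in NC, 6.24 and 10.2 in H1, 6.35 and 5.63 in H1R1, 10.6 and 11.1 in H1R6, and 8.72 in H1R18. All later libraries were below both NC libraries. PSMD5 was lower at H1R1, at -1.08 (SE 0.31, edgeR adjusted p = 0.0116), which was the largest change of the 40 genes in either direction at that time, and it rests on 24 to 66 counts per library. The call was lost without NC replicate 1 or either H1R1 library (-1.18 to -0.99, highest adjusted p 0.0821). The values of PSMD9 (-0.10) and PSMD10 (0.27) at H1R1 did not pass the test.

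The activators are alternative caps of the core. Of the 4, PSME3 and PSME4 were called at H1R1 and PSME3 at H1R18. PSME3, or PA28 gamma, the nuclear cap, had 166 and 135 CPM in NC, 136 and 133 in H1, 199.98 and 173 in H1R1, 178 and 168 in H1R6, and 88.3 in H1R18. It was higher at H1R1 than in NC by 0.31 (SE 0.10, edgeR adjusted p = 0.023) and lower at H1R18, at -0.78 (SE 0.13, adjusted p = 0.00012). The H1R1 call was lost without NC replicate 2 or H1R1 replicate 1 (0.18 to 0.47 over the libraries left out) and with library size scaling (highest adjusted p 0.31). Against the time before, PSME3 was higher at H1R1 than at H1 by 0.48 (SE 0.10, edgeR adjusted p = 0.00105), a call lost without H1R1 replicate 1 (0.37 to 0.57, highest adjusted p 0.0652), and fell by 0.97 between H1R6 and H1R18 (SE 0.13, adjusted p = 3.29e-06).

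PSME4, or PA200, had the highest mean CPM of the 40 genes in NC. It had 228 and 210 CPM in NC, 227 and 246 in H1, 270 and 275 in H1R1, 224 and 219.9 in H1R6, and 222 in H1R18. PSME4 rose by 0.31 at H1R1 (SE 0.08, edgeR adjusted p = 0.0047) and was back within the range of NC at H1R6 and H1R18 (0.02 at both times). Between H1R1 and H1R6 it fell by 0.30 (SE 0.08, edgeR adjusted p = 0.00891), which was lost without either H1R6 library (-0.31 to -0.27) and with library size scaling (highest adjusted p 0.0949). PSME1, a subunit of the interferon-inducible PA28 cap, had 32.2 and 30.3 CPM in NC, 28.9 and 27.9 in H1, 32.1 and 23.7 in H1R1, 22.96 and 20.2 in H1R6, and 26.2 in H1R18. Both H1R6 libraries were below NC, with a change of -0.54 (SE 0.19) that did not pass the test (edgeR adjusted p = 0.0795).

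The regulator NFE2L1 (ENSG00000082641, chr17:48048329-48061545) was lower at H1R1, when most of the subunit genes had positive values. It had 117 and 111 CPM in NC, 105 and 111 in H1, 89.4 and 97.1 in H1R1, 111 and 113 in H1R6, and 142 in H1R18. The H1R1 libraries were the lowest and the H1R18 library was the highest. Against NC it was lower at H1R1, at -0.30 (SE 0.10, edgeR adjusted p = 0.0259), and its 0.31 at H1R18 (SE 0.11) did not pass the test (adjusted p = 0.0766). Between successive times it was higher at H1R6 than at H1R1 by 0.27 (SE 0.09, edgeR adjusted p = 0.0491) and at H1R18 than at H1R6 by 0.34 (SE 0.11, adjusted p = 0.0412). The call at H1R1 was lost without NC replicate 1 or H1R1 replicate 1 (-0.35 to -0.23), with no filter and with DESeq2 (highest adjusted p 0.214). Both successive calls were lost with no filter, with DESeq2, with the replicate block and without any 1 of the libraries of H1 or of the conditions compared (0.21 to 0.32 and 0.33 to 0.35). As a description over the 9 libraries, 37 of the other 39 genes ran against NFE2L1 in log2 CPM (median Pearson r -0.81). Libraries of a condition are not independent of each other, and all values come from the same scaled libraries. The single H1R18 library, where NFE2L1 was highest, is part of this r. Neither the share of all compared genes with a negative r nor this median without H1R18 was computed. The genes most like NFE2L1 among 11746 compared were TENM1 (r 0.98, Spearman's rho 0.75), CPT1A (0.97 and 0.92), CDK10 (0.97 and 0.75), SLC29A4 (0.97 and 0.88) and KANTR (0.97 and 0.90), with r of 0.93 to 0.96 in the 8 libraries without H1R18.

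Between successive times, the 40 genes moved as follows. From H1 to H1R1, 12 were higher (6.35% of all genes tested) and none was lower by edgeR or DESeq2, with 1 lower at an unadjusted p under 0.05 (5.08% of all genes were called lower). Of the well expressed genes named above, 15.3% were higher from H1 to H1R1. The 12 fell to 5 without H1 replicate 2 or H1R1 replicate 1 and to 6 without H1 replicate 1. From H1R1 to H1R6, 8 were lower, against 8.93% of all genes tested, and 1, NFE2L1, was higher (6.43%). In that comparison 19.5% of the well expressed genes were lower, close to the 20% of the 40 genes. The 8 fell to 2 without H1R6 replicate 1, and to 3 without H1R6 replicate 2, without H1R1 replicate 1 or with library size scaling. From H1R6 to H1R18, 21 were lower, against 7.65% of all genes tested, and 1, NFE2L1, was higher (6.28%). Among the well expressed genes 16.4% were lower from H1R6 to H1R18. Leaving out a library gave 14 to 22 of the 40 genes lower in that comparison. PSMB5 was among them, with a fall of 0.82 (SE 0.12, edgeR adjusted p = 9.6e-06).

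Of 33 other genes of the pathway (further subunits, core chaperones, shuttle factors, proteasome-bound enzymes and regulators), 29 were tested. The 4 not tested were the interferon-inducible PSMB8 and PSMB9, listed at 0 in every library, and the testis subunit PSMA8 and the thymus subunit PSMB11, which had 2 and 4 counts in H1 replicate 1 and 0 in the other libraries. As for PSMB3, whether transcripts of PSMB8 and PSMB9 were absent or their reads were lost in mapping or counting was not tested. At H1, 3 were higher and 1 lower than in NC, beside 3.43% and 1.77% of all genes tested: NFE2L3, a relative of NFE2L1, by 0.89 (SE 0.14, edgeR adjusted p = 9.47e-05), the small lid subunit SEM1 by 0.51 (SE 0.13, 0.0162), MAFG by 0.48 (SE 0.13, 0.0297) and PAAF1, a base chaperone, at -0.78 (SE 0.20, 0.0187). The calls of SEM1, MAFG and PAAF1 were each lost without 2 or more of the NC and H1 libraries in turn (0.33 to 0.68, 0.33 to 0.63 and -0.82 to -0.71), and those of MAFG and PAAF1 also with DESeq2. At H1R1, 9 were higher and 2 lower, beside 10.7% and 9.53% of all genes tested. MAFG, a small MAF protein and partner of NFE2L1, had 107 and 100.3 CPM at H1R1, against 46.5 and 38.6 CPM in NC, and rose by 1.28 (SE 0.13, edgeR adjusted p = 8.37e-09). MAFK, a second small MAF, had 46.8 and 49.5 CPM at H1R1, against 24.9 and 22.7 CPM in NC, and rose by 1.01 (SE 0.17, edgeR adjusted p = 6.8e-05). ZFAND5, a proteasome-binding protein, rose by 0.62 (SE 0.09, adjusted p = 8.89e-06), and IPO9, an importin that carries proteasomes into the nucleus, fell by 0.43 (SE 0.08, adjusted p = 0.000159). For these 4 genes the H1R1 libraries did not overlap NC and the calls were kept in all 17 alternatives. At H1R6, 1 was higher and 1 lower (3% and 4.03% of all genes tested). DDI2, the protease that processes NFE2L1, was higher by 0.37 (SE 0.09, edgeR adjusted p = 0.00795, lost without NC replicate 2 or H1R6 replicate 2, 0.31 to 0.47) and IPO9 was lower, at -0.53 (SE 0.08, 2.72e-05). At H1R18 none of the 29 was called by edgeR or DESeq2 (4.58% of all genes tested were higher and 6.43% lower by edgeR), and at an unadjusted p under 0.05 there were 4 higher and 6 lower. The medians over the 29 were 0.06, 0.18, 0.09 and -0.01 at H1, H1R1, H1R6 and H1R18.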

How the data were processed

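RNA-seq counts of 9 HEK293T libraries were analysed, with groups taken from the sample labels. The authors deposited raw counts of reads per gene, from total RNA freed of ribosomal RNA. The file header and the submitters' processing notes name featureCounts 2.0.2 on Ensembl 104 (GRCh38) exons, cutadapt 4.1, HISAT2 2.2.1, FastQC 0.11.8 and DESeq2 1.38.3. Each read of a pair was counted (81.8% to 87.5% of nonzero counts are even), strand was not used, and reads with several alignments or genes were left out, which lowers the counts of genes with pseudogenes or overlaps. The deposited exon length of a gene served for CPM per kilobase and was the only other column used. Beyond the name DESeq2, no test for RNA-seq is described in the sources used here.

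From these counts, edgeR 4.0.16 (R 4.3.3) was run with TMM scaling, filterByExpr (minimum count 10, minimum total 15; 21139 of 60664 genes kept), 1 coefficient per condition over all 9 libraries, and the quasi-likelihood test with Benjamini-Hochberg adjustment. The SE is the log2 fold change divided by the square root of F, and 95% intervals are 1.96 SE to each side. The script was tested on simulated counts. Of the gene identifiers, 60463 had a name. Libraries of a condition differed by more than counting error (chi-square per degree of freedom 1.59 to 2.15 on halved counts). Values per library are given for the 5 genes with the smallest adjusted p in each comparison with NC, the gene with the largest change at H1R1 in each role group, and NFE2L1, POMP and the proteolytic subunits. Other genes named were chosen after their values were seen. The members, lists and tests were chosen with earlier results of these data known. Alternatives were RLE and library size scaling, DESeq2 1.42.0, no low-count filter, a minimum of 10 counts in each library, counts divided by 2, only the conditions compared, the replicate number as a block, no H1R18, and each library left out in turn.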

Additional observations from a re-analysis of the deposited data

Results flagged for a closer look

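Differences between successive times were tested directly in the edgeR fit, and 11 of them deserve a second look. They are the called genes with the smallest adjusted p, at most 3 in each direction of each comparison. From H1 to H1R1, PSMD1 was higher by 0.50, PSMD11 by 0.46 and PSME3 by 0.48 on the log2 scale, although the H1 and NC libraries of these 3 genes overlapped. From H1R1 to H1R6, PSMD6 changed by -0.50, PSMA6 by -0.97 and PSME4 by -0.30, and NFE2L1 by 0.27. From H1R6 to H1R18, PSMD12 changed by -1.35, PSME3 by -0.97 and PSMB5 by -0.82, while NFE2L1 changed by 0.34. The last 4 rest on the single H1R18 library.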

How the results depend on the processing

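None of the calls of these genes against NC, and none of the 11 differences between successive times given above, reversed direction in the 17 alternatives (16 for H1R18). The other calls between successive times were recomputed as counts only. Of the calls against NC, those kept in every alternative were 0 of 2 at H1, 7 of 17 at H1R1, 0 of 1 at H1R6 and 10 of 15 at H1R18. With 1 library left out, the genes called higher numbered 1 to 2 at H1, 7 to 14 at H1R1, 0 to 2 at H1R6, 5 to 14 for H1R1 against H1, 0 to 1 for H1R6 against H1R1 and 0 to 1 for H1R18 against H1R6. Those called lower numbered 0 to 2 at H1R1, 12 to 17 at H1R18, 2 to 9 for H1R6 against H1R1 and 14 to 22 for H1R18 against H1R6. Library size scaling gave 9 genes higher at H1R1, 1 higher at H1R18, and 2 higher and 3 lower for H1R6 against H1R1. Under it the median of all genes was -0.07 at H1R1 and 0.08 for H1R6 against H1R1. The share of calls over all genes that were higher was 42.3% with library size scaling, against 52.8% with TMM, at H1R1. It was 43.4% against 55.6% for H1R1 against H1, and 62.3% against 41.9% for H1R6 against H1R1. No filter and DESeq2 each gave 1 gene lower at H1R1, 0 higher for H1R6 against H1R1 and 0 higher for H1R18 against H1R6. With at least 10 counts per library, 4 were higher at H1R6, 1 at H1R18 and 2 for H1R6 against H1R1. Counts divided by 2 gave 1 higher at H1R18 and 2 higher for H1R6 against H1R1. The cause was not tested.

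No shared deviation of same-numbered libraries was seen: their deviations correlated by -0.0362 to 0.0443 over 11747 genes. Whether same-numbered libraries were prepared together is not stated in the labels. With the replicate block, 2, 14, 1 and 0 genes were higher and 0, 2, 0 and 13 lower at H1, H1R1, H1R6 and H1R18, and the single higher gene was lost (0) for H1R6 against H1R1 and for H1R18 against H1R6. Depth limits the genes with few counts, PSMA2, PSMA6 and PSMD5, and the single H1R18 library limits every value at that time.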
